A study of Mus musculus with 30 samples.

Results

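The genes described here are 28 mouse genes of cholesterol synthesis, uptake and efflux, picked by name from the gene table's symbol column. All 28 were found among its 47069 genes. C57BL/6 mice were fed fructose, dextrose (D-glucose) or a corn starch control diet, and RNA of duodenum and liver was sequenced, with 5 libraries for every tissue on every diet, which makes 30 libraries in 6 groups. The labels used here state strain, tissue and diet, and do not say that the 5 libraries of a group came from separate mice or that libraries of the same number in both tissues came from 1 mouse. The p-values below therefore measure the spread between these libraries, which may be technical in part.

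Cells build cholesterol from acetyl-CoA through mevalonate, squalene and lanosterol, and take it up or export it through membrane transporters. When sterols in the endoplasmic reticulum run low, SCAP carries the transcription factor SREBP2 to the Golgi, where it is cut and freed to switch on nearly every enzyme of the pathway; the INSIG proteins hold SCAP back when sterols are plentiful. In liver this pathway feeds lipoproteins and bile, and in the duodenum it runs beside the absorption of dietary and biliary cholesterol. By role the 28 genes divide into 7 enzymes of the mevalonate pathway (Acat2, Hmgcs1, Mvk, Pmvk, Mvd, Idi1 and Fdps), 11 enzymes from squalene to cholesterol (Fdft1, Sqle, Lss, Cyp51, Tm7sf2, Msmo1, Nsdhl, Hsd17b7, Ebp, Sc5d and Dhcr7), 5 genes of SREBP2 control and sterol transport within the cell (Insig1, Insig2, Srebf2, Scap and Stard4), and 5 genes of uptake, efflux and esterification (Npc1l1, Abcg5, Abcg8, Abca1 and Soat2).

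Total counts per library ran from 14530137 to 19850935. Markers of enterocytes and hepatocytes followed the tissue labels in all libraries, but 5 libraries stood apart on the acinar, hepatocyte or proliferation lists. Summed over 8 genes and without further scaling, pancreatic acinar markers reached 74.8 CPM (counts scaled to the library total) in duodenum fructose 3 and 172 in library 3 of control duodenum, against 8.44 to 13.3 in the other duodenum libraries. The sum over 8 hepatocyte genes reached 190 in library 5 of control duodenum, against 2.61 to 5.40 in the other duodenum libraries. The sum over 8 proliferation genes was 197 in liver dextrose 5 and 181 in liver control 2, against 4.08 to 10.6 in the other liver libraries. Results that rest on these 5 libraries are also given without them. A sixth, duodenum fructose 2, had a sum of 12.1 over 6 Brunner gland and gastric mucosa genes, against 0.236 to 1.61 in the other duodenum libraries, with Muc5ac and Tff1 at 0. It was left out only singly. Acinar sums in liver were uneven too, at 1416 in dextrose 5, 560 in control 5, 300 in control 2 and 241 in dextrose 4. The other liver libraries had 37.7 to 128. Liver control 5 and dextrose 4 were also left out only singly, so results without the 5 libraries still include them.

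Promoters of 5 of the genes are shown because the text turns on how these genes move with or against one another. Hmgcs1 and Mvd were high together in the same liver fructose libraries, though neither passed the main test in a liver diet comparison. Cyp51 and Tm7sf2 passed it on fructose in duodenum, as did Pmvk, but not without the libraries that stood apart. Abcg5 ran the other way across the fructose libraries. Each window holds the 250 bases before and the 50 bases after the RefSeq gene start in build GRCm38.p6, written 5′ to 3′ on the gene's strand. Capitals mark the core of a sterol regulatory element, the site SREBP2 binds, searched as TCACNCCAC, and NF-Y boxes, searched as CCAAT, on both strands.
Hmgcs1, chr13:119690101-119690400, plus strand: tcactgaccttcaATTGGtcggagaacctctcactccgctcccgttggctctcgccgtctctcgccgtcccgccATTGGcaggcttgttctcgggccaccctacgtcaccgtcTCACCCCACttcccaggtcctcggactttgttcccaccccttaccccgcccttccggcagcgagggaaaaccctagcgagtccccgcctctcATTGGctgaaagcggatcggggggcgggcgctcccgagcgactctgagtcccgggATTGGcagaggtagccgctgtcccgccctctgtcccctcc
Mvd, chr8:122443373-122443672, minus strand: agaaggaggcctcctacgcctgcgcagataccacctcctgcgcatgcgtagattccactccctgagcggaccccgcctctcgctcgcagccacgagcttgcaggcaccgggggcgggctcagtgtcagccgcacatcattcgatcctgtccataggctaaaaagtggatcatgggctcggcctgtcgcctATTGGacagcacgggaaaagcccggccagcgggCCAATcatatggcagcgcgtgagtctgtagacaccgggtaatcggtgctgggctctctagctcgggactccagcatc
Cyp51, chr5:4104648-4104947, minus strand: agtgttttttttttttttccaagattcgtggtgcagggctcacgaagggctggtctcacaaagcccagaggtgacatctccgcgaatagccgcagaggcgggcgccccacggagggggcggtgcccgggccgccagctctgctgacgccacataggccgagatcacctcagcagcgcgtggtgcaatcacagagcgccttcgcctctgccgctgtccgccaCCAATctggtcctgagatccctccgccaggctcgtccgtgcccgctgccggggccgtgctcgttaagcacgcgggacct
Tm7sf2, chr19:6067801-6068100, minus strand: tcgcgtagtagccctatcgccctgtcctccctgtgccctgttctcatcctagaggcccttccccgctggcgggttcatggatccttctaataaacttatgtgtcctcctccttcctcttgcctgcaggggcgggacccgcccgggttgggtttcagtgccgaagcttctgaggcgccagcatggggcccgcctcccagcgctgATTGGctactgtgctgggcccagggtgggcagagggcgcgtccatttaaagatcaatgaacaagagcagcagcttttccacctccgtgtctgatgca
Abcg5, chr17:84682962-84683261, minus strand: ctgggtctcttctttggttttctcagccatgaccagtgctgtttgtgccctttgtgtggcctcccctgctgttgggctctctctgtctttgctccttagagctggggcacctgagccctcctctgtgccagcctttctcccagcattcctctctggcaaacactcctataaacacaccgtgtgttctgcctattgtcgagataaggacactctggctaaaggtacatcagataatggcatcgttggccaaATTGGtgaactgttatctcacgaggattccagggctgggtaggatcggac
Windows were available for 23 of the 28 genes. The letters TCACNCCAC were found in 1 of these 23 genes, in Hmgcs1 at 137 bases before the start, and in 1.44% of all 27025 genes with a window. CCAAT was found in 20 of the 23 genes, among them all 5 shown, against 41.1% of all genes. The GC box GGGCGG was found in 19 of the 23, against 38.2% of all genes. Abcg5 and Abcg8 lie head to head on opposite strands. The window of Abcg5 shares 209 bases with an Abcg8 window and 0 with another Abcg8 window. A match of letters is not a bound site, and no match says only that these letters are missing from the window.

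The first comparison set the tissues side by side on the control diet. In control duodenum, mean FPKM (the count divided by gene length and by the library's total) was 317 for Abcg5, 257 for Npc1l1, 149 for Abcg8 and 147 for Soat2, the 4 highest of the 28. In control liver the order began with Insig2 at 422, Ebp at 204, Sc5d at 201, Insig1 at 157 and Scap at 152. Neighbours in either order were often closer than their spread: Abcg8 ran from 93.5 to 193 FPKM and Soat2 from 130 to 184 FPKM over the 5 control duodenum libraries.

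In edgeR's quasi-likelihood test with Benjamini-Hochberg adjustment over all genes, 25 of the 28 genes (89.3%) differed between duodenum and liver on the control diet, with an adjusted p under 0.05, against 74.6% of all 15268 genes tested. Of these, 5 were higher in duodenum, against 37.3% of all genes, and 20 were lower, against 37.3%. The log2 difference was negative for 22 of the 28 genes, against 50.1% of all genes. All 18 synthesis genes had a negative log2 difference, with a median of -1.86, against a median of 0.00 over all genes tested. The groups did not overlap in FPKM for 19 of the 28 genes, against 56% of all genes.

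Npc1l1, the importer that enterocytes use to absorb cholesterol and the target of ezetimibe, had 16676 to 23240 counts per library in control duodenum, against 0 to 10 in control liver. No fold is given for it because the liver side rests on so few counts; the test called it with an adjusted p of 1.31e-21. Abcg5, which pairs with Abcg8 to pump sterols back into the gut lumen and into bile, was higher in duodenum by 2.50 ± 0.20 (log2, SE, n = 5 each; adjusted p = 2.33e-12), and Abcg8 by 1.75 ± 0.21 (adjusted p = 2.08e-08). Soat2, which esterifies cholesterol for lipoprotein export, was higher by 2.19 ± 0.16 (adjusted p = 5.15e-13). Srebf2, the gene of SREBP2 itself, was higher in duodenum by 0.44 ± 0.13 (adjusted p = 0.0033), at 18.1 FPKM in duodenum and 10.7 FPKM in liver.

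The sterol reductase gene Tm7sf2 showed the largest negative log2 difference of the 28, -3.11 ± 0.30 (adjusted p = 2.42e-10), with mean FPKM of 18.4 in duodenum and 123 in liver. Insig2 followed at -3.02 ± 0.15 (adjusted p = 6.11e-17), with 62.5 FPKM in duodenum and 422 FPKM in liver. Abca1, which loads cholesterol onto high-density lipoprotein, was the one transport gene lower in duodenum, by a log2 difference of -2.84 ± 0.38 (adjusted p = 1.21e-07). The SREBP2 escort Scap had a log2 difference of -2.39 ± 0.23 (adjusted p = 2.43e-10). The remaining 16 genes called lower were Insig1 and 15 synthesis enzymes, with log2 differences from -2.99 (Fdps) to -0.69 (Hmgcs1). The Fdps value is uncertain, since it rests on few counts in duodenum. Its control libraries ran from 0.316 to 0.553 FPKM there and from 0.53 to 4.04 FPKM in liver, so they overlapped.

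Mvd, Msmo1 and the sterol carrier gene Stard4 did not pass the test. Mean FPKM was 6.83 in duodenum and 8.75 in liver for Mvd, 44 and 45.8 for Msmo1 in the same order, and 86.1 and 66.6 for Stard4. The Hmgcs1 call was the weakest, with an adjusted p of 0.0391, and was lost without any 1 of duodenum control 1, 3 or 4 or liver control 1 or 4 (adjusted p = 0.0631 to 0.16). Without the 5 libraries that stood apart, 27 of the 28 genes were called. With all libraries it was 25 of the 28, against 74.6% of all genes. The share of all genes without the 5 libraries is not given here, so the count of 27 says nothing particular to these genes.

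**Figure D1:**
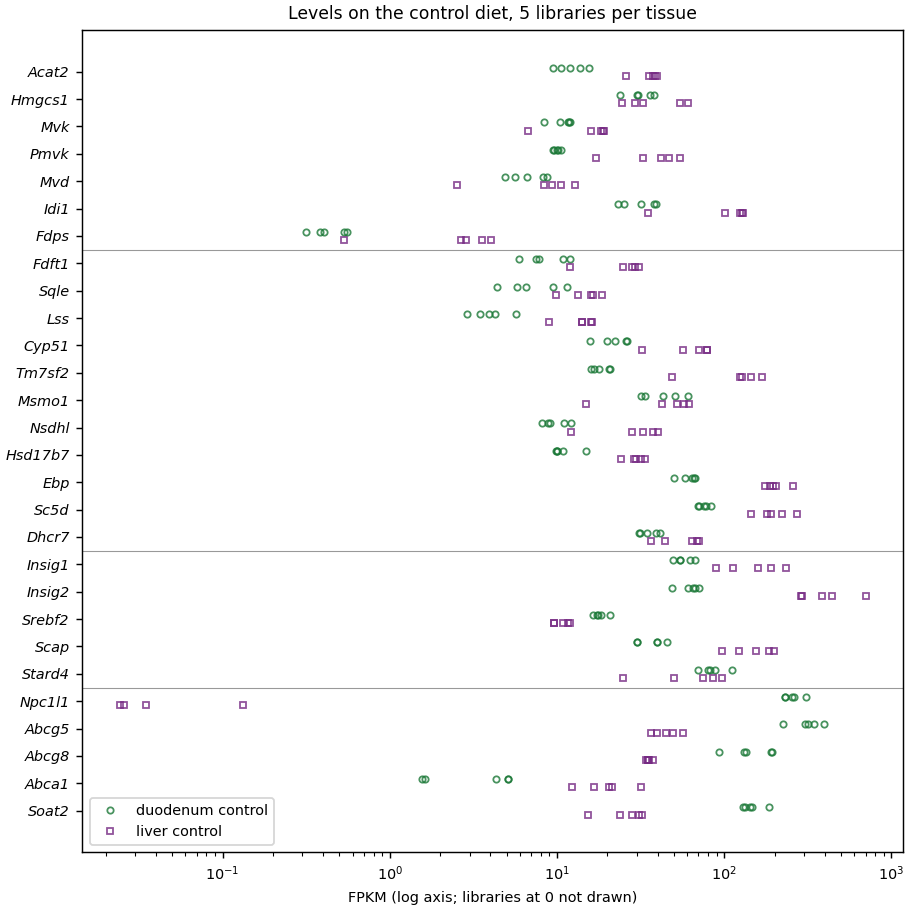
Levels of the 28 genes on the control diet in duodenum (circles) and liver (squares), in FPKM on a log axis, 1 symbol per library, 5 libraries per tissue; libraries at 0 are not drawn. The synthesis genes in the upper blocks lie to the left in duodenum, while Npc1l1, Abcg5, Abcg8 and Soat2 lie to the right; Npc1l1 averaged 257 FPKM in duodenum and 0.0434 FPKM in liver.

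In duodenum, fructose was then compared with control. Of the 28 genes, 3 (10.7%) rose and 0 fell at an adjusted p under 0.05, against 4.01% of all 13884 genes tested that rose, 2.7% that fell and 6.71% called in either direction. Over all genes 557 rose and 375 fell, and with upper-quartile factors 480 rose and 508 fell. The 3 genes were Pmvk, Cyp51 and Tm7sf2. At an unadjusted p under 0.05 there were 8 of the 28, against 19.3% of all genes. The log2 fold change was positive for 24 of the 28 genes (85.7%), against 46.1% of all genes, and for 17 of the 18 synthesis enzymes. Its median was 0.30 over the synthesis enzymes and 0.24 over all 28, against -0.02 over all genes tested. Of the 18 enzymes 13 were positive without fructose 3, and 14 without fructose 2 or without all 3 libraries that stood apart, where the median was 0.28. In bulk tissue, more cells of a type and more RNA per cell cannot be told apart.

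Pmvk (ENSMUSG00000027952), whose kinase makes mevalonate diphosphate, had 15.0, 22.4, 19.7, 10.7 and 9.66 CPM, here and below scaled by edgeR's TMM factors unless called unscaled, in fructose libraries 1 to 5, against 9.63, 10.5, 9.43, 9.45 and 9.83 CPM in control libraries. Fructose libraries 1, 2 and 3 lay above all controls, 4 just above, and 5 among them. The log2 fold change was 0.67 ± 0.19 (SE, n = 5 each; adjusted p = 0.0421).

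Cyp51 (ENSMUSG00000001467), the lanosterol demethylase, had 61.5, 108, 86.0, 29.3 and 38.9 CPM on fructose, against 33.0, 38.8, 29.3, 22.2 and 37.1 CPM on control. Again fructose 1, 2 and 3 stood above all controls, and fructose 4 and 5 fell within or next to the control range. Its log2 fold change was 1.02 ± 0.28 (adjusted p = 0.0442). In the reference annotation 3.76% of the exonic bases of Cyp51 overlap Akap9 on the opposite strand.

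Tm7sf2 (ENSMUSG00000024799), the reductase that acts after Cyp51, had 22.1, 29.1, 25.1, 23.2 and 18.7 CPM on fructose, against 17.6, 20.1, 16.3, 19.3 and 15.1 CPM on control. Here 4 of 5 fructose libraries lay above every control. Its log2 fold change was 0.42 ± 0.12 (adjusted p = 0.0384). Of its exonic bases 12.1% are shared with Vps51 on the same strand.

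These 3 calls rested on few libraries. Without duodenum fructose 2, fructose 3, control 1, control 3 or control 5, none of the 28 genes was called; without fructose 1, control 2 or control 4, Tm7sf2 alone was called. Without fructose 2, the library with gastric mucosa markers, the log2 fold change was 0.49 for Pmvk (adjusted p = 0.13), 0.75 for Cyp51 (adjusted p = 0.115) and 0.33 for Tm7sf2 (adjusted p = 0.121). Without the 3 duodenum libraries that stood apart, the log2 fold change was 0.55 for Pmvk (adjusted p = 0.328), 0.92 for Cyp51 (adjusted p = 0.286) and 0.29 for Tm7sf2 (adjusted p = 0.402). In that setting edgeR called 0 of the 28 genes, with 3 at an unadjusted p under 0.05. Calls over all genes fell there too, to 329 from 932 with all libraries. The share of all genes is not given here for the runs without a single library. The lost calls are therefore not shown to be particular to these genes. With all libraries DESeq2 called 4 of the 28, the fourth being Abca1, against 9.06% of all genes by DESeq2. The enterocyte marker list also differed, with a mean of 10.89 to 11.27 log2(CPM + 1) on fructose, against 11.46 to 11.64 on control. On dextrose it was 11.1 to 11.41, also below control. The 8 markers did not move together: on fructose against control 4 had a positive and 4 a negative log2 fold change, from -1.34 to 0.89. Of them 1 was called higher and 4 lower on fructose, and 1 higher and 2 lower on dextrose. The part of this list in these results was not tested.

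The other duodenal genes with an unadjusted p under 0.05 did not pass the adjustment. Mvd, which decarboxylates mevalonate diphosphate, gave a log2 fold change of 0.64 ± 0.26 (adjusted p = 0.17), and Idi1, the isopentenyl diphosphate isomerase, 0.54 ± 0.23 (adjusted p = 0.21). Dhcr7, the reductase of the last step, had 0.34 ± 0.14 (adjusted p = 0.159) and the sterol isomerase gene Ebp 0.27 ± 0.10 (adjusted p = 0.144).

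Abca1 gave the largest value, 1.30 ± 0.42 (adjusted p = 0.0888). It had 38.7, 32.0, 27.4, 73.8 and 64.3 CPM on fructose, against 9.06, 28, 23.6, 8.22 and 27.3 CPM on control. Its highest fructose libraries were 4 and 5, which were the lowest for Pmvk.

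**Figure D2:**
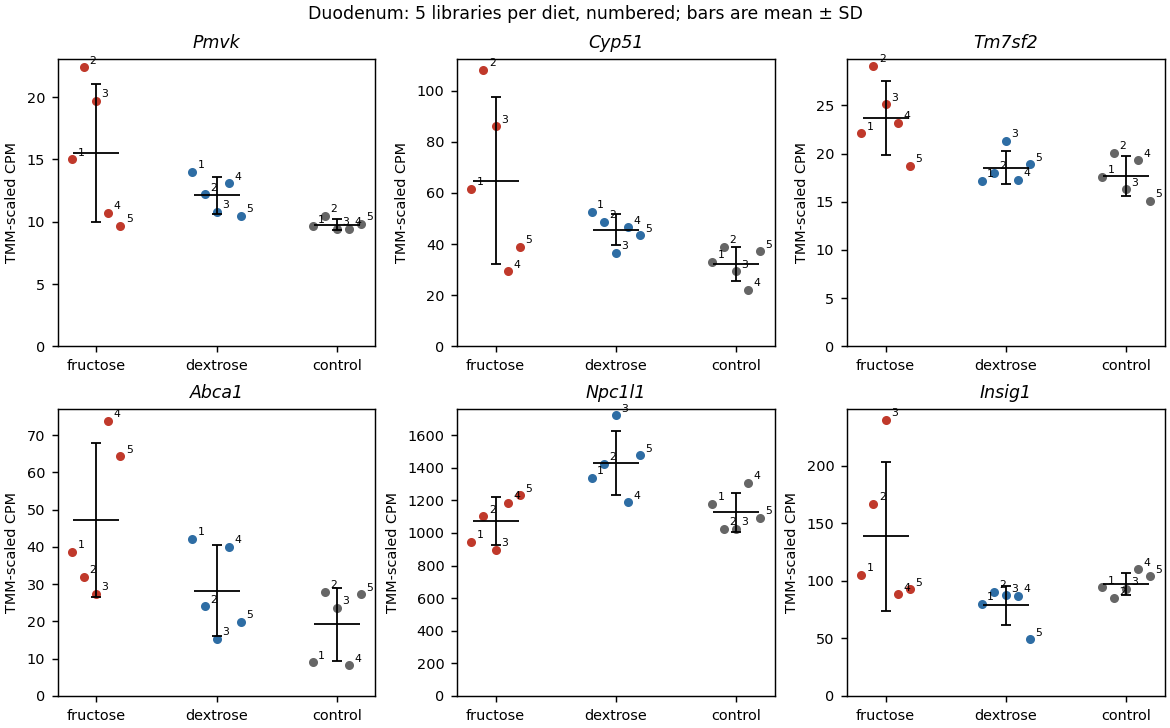
TMM-scaled CPM of 6 genes in duodenum by diet, 1 numbered point per library, with the mean and SD (n = 5 per diet). On fructose, libraries 4 and 5 lie lowest for Pmvk and Cyp51 (29.3 and 38.9 CPM) and highest for Abca1 (73.8 and 64.3 CPM); Npc1l1 lies highest on dextrose.

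Dextrose against control in duodenum gave 0 calls among the 28 genes by edgeR and 0 by DESeq2. Over all genes edgeR called 2.25%, and DESeq2 called 520 genes. At an unadjusted p under 0.05 there were 2, against 10.8% of all genes. Npc1l1 had 1339, 1424, 1721, 1187 and 1475 CPM on dextrose, against 1179, 1027, 1027, 1308 and 1094 CPM on control. Dextrose 4 was the library that fell within the control range. Its log2 fold change was 0.34 ± 0.12 (adjusted p = 0.178).

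Dhcr7 gave a log2 fold change of 0.37 ± 0.14 on dextrose (adjusted p = 0.238). Its 5 dextrose libraries ran from 49.5 to 61.9 CPM and its controls from 36.8 to 49.9 CPM. For Pmvk the groups did not overlap in TMM-scaled CPM, the only such gene of the 28 (3.57%, against 3.48% of all genes; in FPKM Dhcr7 did not overlap either, 2 of 28 against 3.6%): it had 14.0, 12.2, 10.8, 13.1 and 10.5 CPM on dextrose, and its highest control library, at 10.5 CPM after rounding, lay just below. The median log2 fold change was 0.16 over the synthesis enzymes and -0.01 over all genes. The enzymes' median was 0.08 without control 4, 0.09 without dextrose 2, 0.1 without dextrose 1, 0.25 without control 5 and 0.25 without the libraries that stood apart. Fructose and dextrose were both set against the same 5 control libraries, so these 2 comparisons are not independent.

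Fructose against dextrose in duodenum also gave 0 calls among the 28 by edgeR, against 3.64% of all genes, with 4 at an unadjusted p under 0.05, against 16.1%. Over all genes 301 rose and 205 fell, and with upper-quartile factors 282 rose and 329 fell. DESeq2 called 2 of the 28, Insig1 and Npc1l1, against 5.95% of all genes by DESeq2. Npc1l1 had 944, 1103, 896, 1183 and 1231 CPM on fructose, against the dextrose values above, and its log2 fold change was -0.42 ± 0.12 (adjusted p = 0.0561). Without fructose 5 or dextrose 4 it was called by edgeR (adjusted p = 0.0449 and 0.0426). Without the libraries that stood apart the log2 fold change was -0.36 (adjusted p = 0.214).

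Insig1, which is itself switched on by SREBP2 and retains SCAP in the endoplasmic reticulum, had 105, 167, 240, 88.2 and 92.8 CPM on fructose, against 80.2, 90.7, 87.3, 86.8 and 49.1 CPM on dextrose. Fructose 1, 2, 3 and 5 lay above every dextrose library. On the log2 scale the fold change was 0.81 ± 0.25 (adjusted p = 0.0862). Fructose 3, the highest, is one of the libraries with acinar markers, and dextrose 5 is the lowest; without the libraries that stood apart the log2 fold change of Insig1 was 0.52 (adjusted p = 0.273). Leaving out fructose 4 alone gave 0.93 (adjusted p = 0.0472).

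Tm7sf2 was 0.35 ± 0.12 (log2) higher on fructose than on dextrose (adjusted p = 0.116; 0.0491 without fructose 5), and Acat2, the thiolase of the first step, 0.32 ± 0.15 (adjusted p = 0.309). The efflux pair and the esterifying enzyme had wide, overlapping ranges in duodenum. Abcg5 ran from 385 to 698 CPM on fructose, 504 to 550 CPM on dextrose and 321 to 544 CPM on control, and Soat2 from 215 to 293, 247 to 299 and 242 to 336 CPM in the same order. Scap was nearly level, at 37.6 to 39.9 CPM on fructose, 34.8 to 43.3 CPM on dextrose and 31.0 to 47.1 CPM on control.

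In liver, 27 of the 28 genes entered the test; Npc1l1 did not, with 0 to 10 counts per library. Fructose against control gave 0 calls among the 27 by edgeR, against 0.258% of all 13178 genes tested. At an unadjusted p under 0.05 there were 10 of the 27 (37%), all 10 higher on fructose, against 11.7% of all genes in either direction and 5.54% higher. The log2 fold change was positive for 22 of the 27 genes (81.5%), against 45.7% of all genes. Its median was 0.83 over the 7 mevalonate enzymes and 0.25 over the 11 later enzymes, against -0.03 over all genes. Without control 2 the medians were 0.66 and 0.12, and 18 of the 27 genes were positive; the median of the later enzymes was also 0.15 without fructose 1, 0.13 without fructose 2 and 0.43 without fructose 4. DESeq2 called 3 of the 27, Acat2, Mvd and Insig2, against 1.76% of all genes by DESeq2. Adipocyte markers moved with the diet as well: summed over 6 genes they were 3.14 to 5.07 unscaled CPM in the fructose libraries, against 5.66 to 55.9 in those of the dextrose diet and 7.72 to 114 in controls, so the fructose libraries overlapped neither. Of the 4 adipocyte genes tested against control, 0 were called by edgeR and 4 had an unadjusted p under 0.05, with a median log2 fold change of -2.47; their part in the synthesis levels was not tested.

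Mvd (ENSMUSG00000006517) had 57.9, 74.7, 55.7, 19.4 and 22.7 CPM in liver fructose libraries 1 to 5, 11.9, 16.8, 16.1, 16.7 and 6.29 CPM on dextrose, and 19.1, 3.61, 18.1, 24.0 and 15.1 CPM on control. Fructose 1, 2 and 3 lay above every other library, while fructose 4 and 5 lay within the control range and above the dextrose one. The log2 fold change was 1.53 ± 0.47 against control (adjusted p = 0.214) and 1.77 ± 0.47 against dextrose (adjusted p = 0.197).

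Hmgcs1 (ENSMUSG00000093930), the synthase that makes HMG-CoA, had 330, 344, 335, 127 and 142 CPM on fructose, 117, 143, 138, 162 and 80.7 CPM on dextrose, and 180, 64.3, 116, 208 and 96.7 CPM on control. The 3 high fructose libraries were the same ones, and fructose 4 and 5 lay inside both other groups. Its log2 fold change was 0.94 ± 0.35 against control (adjusted p = 0.301) and 1.00 ± 0.35 against dextrose (adjusted p = 0.364). Of its exonic bases 12.1% overlap an antisense gene.

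Acat2 (ENSMUSG00000023832) had 134, 125, 126, 65.6 and 58.6 CPM on fructose, 55.3, 53.9, 49.5, 57.5 and 46.5 CPM on dextrose, and 62.4, 34.2, 68.7, 68.3 and 58.8 CPM on control. Fructose 1, 2 and 3 were again the high libraries, and all 5 lay above the dextrose ones, the nearest pair being 58.6 and 57.5 CPM. For Acat2 the log2 fold change was 0.80 ± 0.23 against control (adjusted p = 0.18) and 0.96 ± 0.23 against dextrose (adjusted p = 0.135).

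Insig2 (ENSMUSG00000003721), whose liver transcript is known in mouse to be lowered by insulin, did not share this order. It had 476, 456, 523, 471 and 481 CPM on fructose, 246, 280, 292, 271 and 340 CPM on dextrose, and 355, 447, 250, 319 and 229 CPM on control. All 5 fructose libraries lay close together and above every library of the other diets in TMM-scaled CPM, and the nearest was control 2. In FPKM, which is not TMM-scaled, control 2 had 705, above the 561 to 676 on fructose. For Insig2 the log2 fold change was 0.59 ± 0.16 against control (adjusted p = 0.158) and 0.75 ± 0.16 against dextrose (adjusted p = 0.107). It was the 1 gene of the 27 (3.7%) whose fructose and control libraries did not overlap in TMM-scaled CPM, against 2.88% of all genes; in FPKM there were 0 of 27, against 2.53%.

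Without liver control 2 alone, Insig2 was called against control by edgeR, at 0.74 (adjusted p = 0.0426). Without control 2 and dextrose 5, the libraries with proliferation markers, Insig2 rose by 0.74 against control (adjusted p = 0.0106) and by 0.83 against dextrose (adjusted p = 0.00491). In that setting Mvd (1.60, adjusted p = 0.0466) and Acat2 (0.93, adjusted p = 0.0424) also rose against dextrose, and the count of called genes was 1 of 27 against control and 3 of 27 against dextrose. All genes called in the same setting were 1.72% against control and 1.91% against dextrose.

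Further liver genes had an unadjusted p under 0.05 against control without passing the adjustment. Fdps, the farnesyl diphosphate synthase, gave a log2 fold change of 1.44 ± 0.56 (adjusted p = 0.339), on levels of only 3.30 to 12.9 CPM on fructose, against 0.504 to 4.86 CPM on control. In the reference annotation 26.7% of its exonic bases are shared with another gene on the same strand, so its counts are uncertain. Pmvk had 0.83 ± 0.33 (adjusted p = 0.348), Lss, the lanosterol synthase, 0.80 ± 0.29 (adjusted p = 0.288), and Sc5d, a sterol desaturase, 0.58 ± 0.23 (adjusted p = 0.329). Among the controllers, Insig1 had 0.81 ± 0.31 (adjusted p = 0.329) and Srebf2 0.28 ± 0.11 (adjusted p = 0.348).

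**Figure D3:**
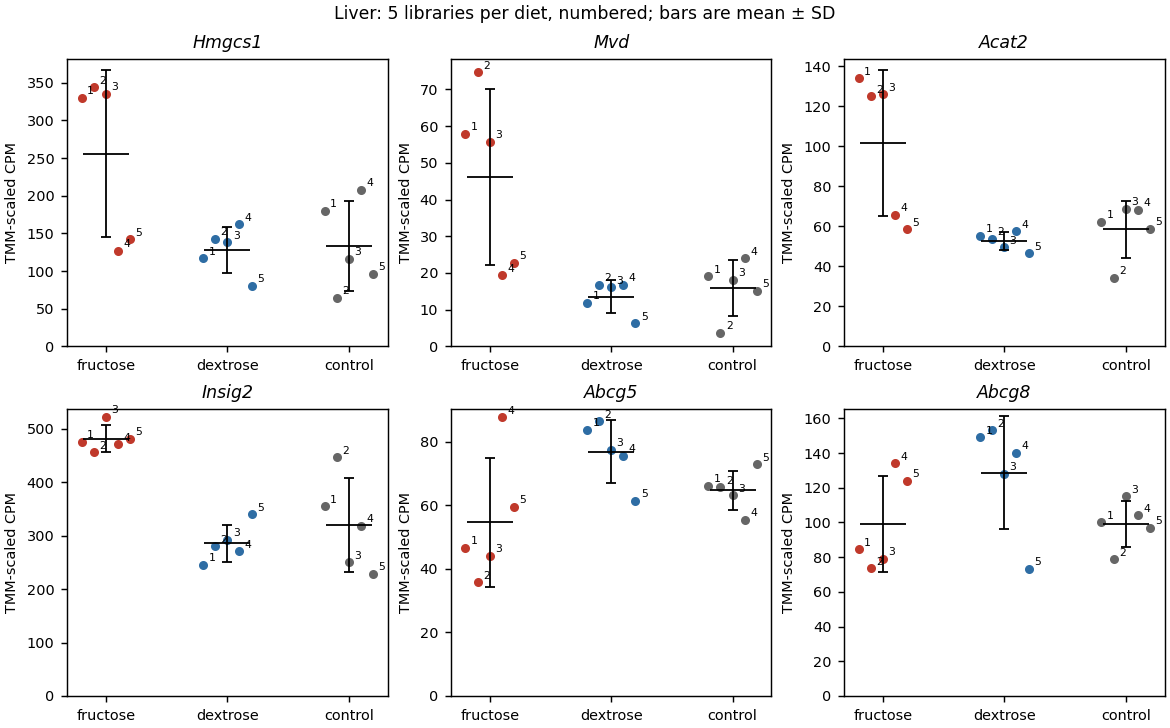
TMM-scaled CPM of 6 genes in liver by diet, 1 numbered point per library, with the mean and SD (n = 5 per diet). Fructose libraries 1 to 3 lie apart from 4 and 5 for Hmgcs1 (330 to 344 against 127 and 142 CPM), Mvd and Acat2, whereas all 5 lie between 456 and 523 CPM for Insig2; Abcg5 and Abcg8 are highest in fructose 4 and 5 within that diet.

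Dextrose against control in liver gave 0 calls by edgeR among the 27 genes and 0 at an unadjusted p under 0.05, against 4.2% of all genes at that p, and 0 by DESeq2. No gene of the whole table was called by edgeR (0%), and the share by DESeq2 is not given here. The median log2 fold change over the synthesis enzymes was -0.07, with 5 of 18 positive, against 0.01 over all genes; over the 27 genes 12 were positive, against 51.6% of all genes. Single libraries turned this: without dextrose 5 the enzymes' median was 0.09 with 11 of 18 positive, without control 1 it was 0.02 with 10, and without control 2 it was -0.28 with 2. A p above the threshold does not show that the 2 diets gave the same levels.

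Fructose against dextrose in liver gave 0 calls by edgeR among the 27 genes, against 0.0759% of all genes, and 3 by DESeq2 (Acat2, Mvd and Insig2), against 1.09% of all genes by DESeq2. At an unadjusted p under 0.05 there were 9 (33.3%), against 9.45% of all genes. Acat2, Mvd and Insig2 did not overlap between the diets in TMM-scaled CPM, 3 of 27 (11.1%), against 3.61% of all genes. In FPKM Acat2 did overlap, from 34.9 on fructose and up to 35.5 on dextrose, which left 2 of 27, against 3.32%. The log2 fold change was positive for 22 of the 27 genes, against 44.2% of all genes. It was positive for all 18 synthesis enzymes, with a median of 0.38 and, for the 7 mevalonate enzymes, of 0.99, against -0.03 over all genes. Without dextrose 5, 15 of the 18 were positive and the median was 0.24, and 0.88 for the mevalonate enzymes; without the libraries that stood apart the count was also 15 and the median 0.25.

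Abcg5 was the 1 liver gene of the 9 that was lower on fructose (4.83% of all genes were lower at that p). It had 46.6, 35.8, 44.0, 87.7 and 59.4 CPM on fructose, against 83.7, 86.4, 77.4, 75.6 and 61.3 CPM on dextrose. Fructose 1, 2, 3 and 5 lay below every dextrose library and fructose 4 above them. Its log2 fold change was -0.49 ± 0.19 (adjusted p = 0.427). Its partner Abcg8 had 84.6, 73.6, 79.1, 134 and 124 CPM on fructose, against 149, 153, 128, 140 and 73.3 CPM on dextrose.

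Of the other genes against dextrose, Fdps gave a log2 fold change of 1.54 ± 0.57 (adjusted p = 0.408) and Pmvk 0.99 ± 0.33 (adjusted p = 0.343). Sqle, the squalene epoxidase, had 0.83 ± 0.38 (adjusted p = 0.516) and Insig1 0.80 ± 0.31 (adjusted p = 0.433).

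**Figure D4:**
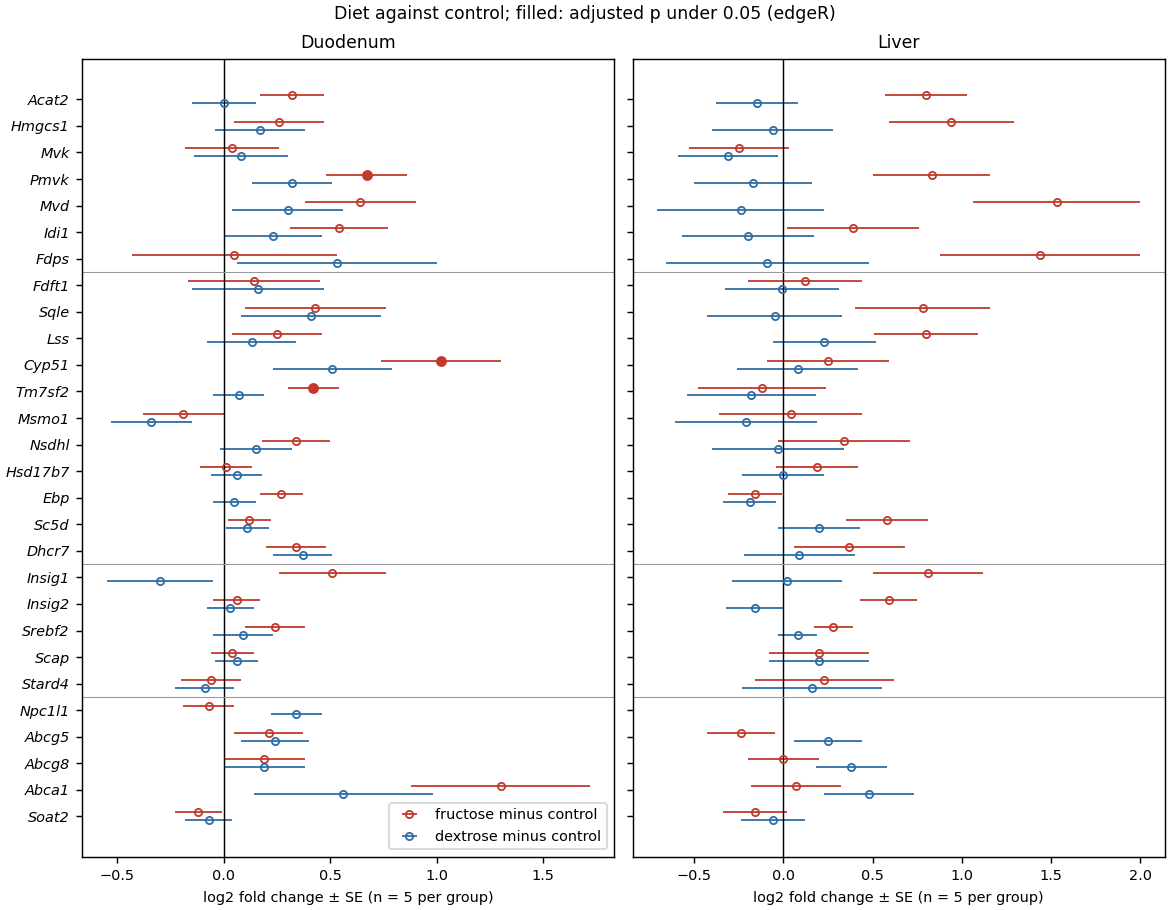
Log2 fold change with its SE for the 28 genes, fructose minus control and dextrose minus control, in duodenum (left) and liver (right), n = 5 per group, from edgeR. Filled points passed an adjusted p under 0.05 and are Pmvk, Cyp51 and Tm7sf2 on fructose in duodenum; the mevalonate genes Mvd and Fdps reach 1.53 and 1.44 in liver with wide errors.

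The spread within groups was itself ordered: in a given library most synthesis genes were high together or low together. For each of the 18 synthesis enzymes the 5 libraries of a group were ranked. In liver on fructose, library 4 was among the lowest 2 for 18 of 18 genes and library 5 for 17 of 18, against 41.2% and 40% of all genes tested in liver. In duodenum on fructose, libraries 4 and 5 were each among the lowest 2 for 16 of 18 genes, against 44.8% and 43.4% of all genes tested in duodenum.

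Summed over the 18 enzymes, FPKM in liver was 1541, 1639, 1608, 863 and 1019 in fructose libraries 1 to 5, 968, 1172, 968, 1317 and 809 on dextrose, and 1171, 636, 1188, 1236 and 1035 on control. Fructose 1, 2 and 3 were above all libraries of the other diets, and fructose 4 and 5 were inside their ranges. In duodenum the sum was 475, 591, 583, 341 and 384 FPKM on fructose, 472, 470, 412, 437 and 385 FPKM on dextrose, and 395, 448, 388, 338 and 436 FPKM on control. There, too, fructose 1, 2 and 3 were above every other library and fructose 4 and 5 were not. The same library numbers were low in both tissues, although the labels do not say that the numbers mark mice.

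Liver dextrose 5 and liver control 2 were the lowest library of their group for 18 of 18 synthesis enzymes each, against 30.9% and 27.1% of all genes tested. These are the libraries with high proliferation markers. Pancreatic acinar markers summed to 1416 and 300 unscaled CPM there, against 37.7 to 560 in the other liver libraries. Other lists were high there too. In the same order, enterocyte sums were 1408 and 1844 (others 284 to 947) and leukocyte sums 200 and 139 (58.6 to 114). Smooth muscle sums were 56.4 and 72.2 (18.5 to 43.3) and cholangiocyte sums 119 and 81.5 (28.8 to 55.1). Hepatocyte sums, 80757 and 91319, lay within the 60970 to 94077 of the others. The part of any of these cells in the low synthesis levels was not tested. Control 2 was low across the pathway: Mvk, the mevalonate kinase gene, had 7.01 CPM there, against 21.2 to 26.3 CPM in the other controls, and Idi1 had 33.4 CPM, against 131 to 160 CPM. Insig2 did not follow, at 447 CPM the highest of the 5 controls. In duodenum the library lowest for most enzymes was control 4 among controls (12 of 18) and dextrose 5 on dextrose (9 of 18), against 30.3% and 30.6% of all genes.

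Proliferation markers in duodenum summed to 78.0 unscaled CPM in fructose 4, 94.9 in fructose 5 and 91.7 in control 4, the 3 lowest, against 123 to 248 in the other libraries. Smooth muscle markers summed to 139 in fructose 4 and 141 in control 4, against 305 to 916 in the others. The part of these cell types in the levels of the synthesis genes was not tested. In liver, fructose 4 and 5 had proliferation marker sums of 6.68 and 5.32 unscaled CPM, within the 5.05 to 8.57 of that group.

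The sterol efflux pair ran in the other direction across the fructose libraries. In duodenum Abcg5 had 385, 461, 411, 698 and 628 CPM and Abcg8 362, 449, 360, 602 and 549 CPM in fructose libraries 1 to 5, so both were highest in 4 and 5. In liver both were again highest in fructose 4 and 5, at 87.7 and 59.4 CPM for Abcg5 and 134 and 124 CPM for Abcg8. The other liver diets did not share this. Dextrose 5, lowest for the enzymes, was also lowest of its group for Abcg5 (61.3 CPM) and Abcg8 (73.3 CPM). Liver control 2 was lowest for Abcg8 (78.7 CPM) but not for Abcg5 (65.6 CPM). In duodenum dextrose 5 was highest of its group for both (550 and 542 CPM), and control 4 for Abcg5 (544 CPM) but not Abcg8 (513 CPM). Reads of the pair can be shared over a short stretch, since 3.02% of the exonic bases of Abcg5 overlap Abcg8.

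**Figure D5:**
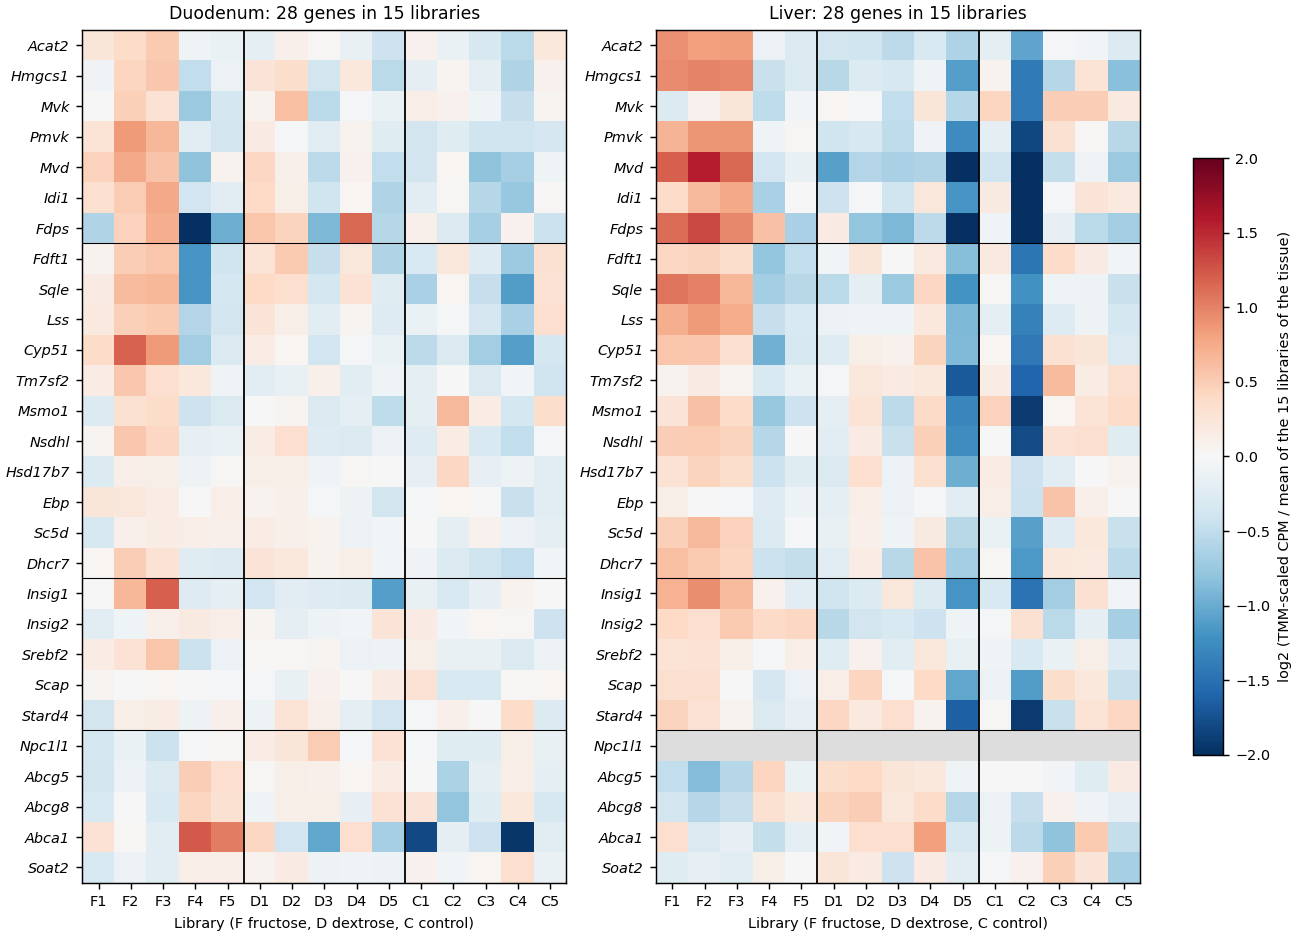
Level of each gene in each library as log2 of its TMM-scaled CPM over the mean of the 15 libraries of that tissue, with colours capped at 2 in either direction. F, D and C mark fructose, dextrose and control libraries 1 to 5. Npc1l1 in liver is grey because its mean level there was too low to be drawn. Many of the enzymes share columns of high values (liver F1 to F3), and the enzymes share columns of low values (liver D5 and C2). Mvk, Tm7sf2 and Ebp had a lower mean on fructose than on control in liver (17.7 against 21.1 CPM for Mvk). Abcg5 and Abcg8 are high in F4 and F5 in duodenum. In liver Abcg5 is high in F4 (87.7 CPM) but not in F5 (59.4 CPM), below every dextrose library.

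The genes also differed in how far they spread within a group. In liver on fructose the SD was 52.1% of the mean for Mvd and 50.7% for Sqle, against 5.25% for Insig2 and 9.21% for Srebf2. Tm7sf2, also a synthesis enzyme, spread less there, at 12.5%. In duodenum on fructose the SD was 50.5% of the mean for Cyp51 and 46.7% for Insig1, against 2.44% for Scap and 6.27% for Ebp.

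Whether a diet acted differently in liver and duodenum was tested as an interaction in a fit to all 30 libraries. For fructose, 0 of the 28 genes differed between tissues by edgeR and 0 by DESeq2, against 1.08% of all 15268 genes by edgeR (63 with a higher and 102 with a lower fructose effect in liver, and 90 and 96 with upper-quartile factors); 3 had an unadjusted p under 0.05, against 13.3% of all genes. The difference, liver effect minus duodenum effect, was 0.51 ± 0.20 for Insig2 (adjusted p = 0.243), -1.23 ± 0.50 for Abca1 (adjusted p = 0.263) and -0.44 ± 0.19 for Ebp (adjusted p = 0.278). Over all genes DESeq2 called 385 for the fructose interaction. For dextrose, 0 of 28 differed by either tool, against 0.118% of all genes by edgeR and 90 genes by DESeq2. At an unadjusted p under 0.05 there were 0, against 6.56%. The larger fructose values of Mvd and Hmgcs1 in liver are therefore not shown to differ from those in duodenum.

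Other genes of the pathway were taken from 4 lists. The percentages of all genes called are those given above for each comparison. Among 12 tested genes of lipoprotein cholesterol uptake and lysosomal transport, 1 rose and 2 fell on fructose against control in duodenum. Scarb1, a lipoprotein receptor found on enterocytes, ran from 2.83 to 11.2 CPM on fructose, against 38.4 to 74.1 CPM on control, with no overlap and a log2 fold change of -3.03 ± 0.52 (adjusted p = 0.00274). Lipa, the lysosomal lipase that frees cholesterol from its esters, rose by 0.48 ± 0.13 (adjusted p = 0.0335). None of the 12 tested genes of other mevalonate branches, the 10 of SREBP processing and the 9 of sterol-responsive efflux and ester handling passed the test there by edgeR or DESeq2; by edgeR 2 of each list had an unadjusted p under 0.05. Without the libraries that stood apart, Scarb1 was still called (-3.06, adjusted p = 0.0298), while Lipa was not (0.45, adjusted p = 0.214).

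Against dextrose, duodenal Scarb1 fell by 2.2 (SE 0.51, adjusted p = 0.0289) and Lipa rose by 0.68 ± 0.13 (adjusted p = 0.00527). On dextrose against control in duodenum, Nr1h3, the gene of a sterol-sensing nuclear receptor, fell by 0.42 (SE 0.09, adjusted p = 0.0169) and Soat1, an esterifying enzyme, rose by 0.54 ± 0.12 (adjusted p = 0.0177). Without the libraries that stood apart, Lipa against dextrose held (adjusted p = 0.0231), and Scarb1 against dextrose, Nr1h3 and Soat1 did not (adjusted p = 0.0741, 0.0689 and 0.0567). The fructose effect on Scarb1 differed between tissues by 2.85 ± 0.51, liver minus duodenum (adjusted p = 0.00348). In liver no gene of these lists was called by edgeR or DESeq2 in any of the 3 diet comparisons, and at most 2 of a list had an unadjusted p under 0.05 by edgeR. Without the libraries that stood apart, 1 gene was called in each fructose comparison there, Apoa1 against control and Srebf1 against dextrose, both picked out after their values were seen. Between the tissues on the control diet, 11 of 12, 9 of 10, 9 of 12 and 9 of 10 tested genes of the 4 lists were called.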

How the data were processed

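RNA was sequenced from 15 duodenum and 15 liver libraries, 5 per tissue and diet, from poly(A)-selected RNA per the labels' protocols. The authors deposited raw read counts and FPKM of 47069 genes. HTSeq 0.6.1, TopHat2 2.0.12, Bowtie2 2.2.3 and DESeq 1.18.0 are named as tools, per the submitters' processing notes. The sources used here do not give the build, annotation release or strand setting. FPKM equalled count over gene length over total count for 100% of positive values, within a relative tolerance of 0.001. Where exons of 2 genes overlap, counts may be split or lost; overlaps were looked up in a reference annotation that may differ from the authors'.

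Counts were tested in R 4.3.3 with edgeR 4.0.16: filterByExpr by group (minimum count 10), TMM factors, a robust quasi-likelihood fit per tissue with 3 diets, two-sided F tests, and Benjamini-Hochberg adjustment over all genes tested with a threshold of 0.05. A second fit, of 6 groups and 30 libraries, gave the tissue difference and the interactions. The SE is the log2 fold change divided by the square root of F. CPM in the text are TMM-scaled unless called unscaled; FPKM and the marker sums are not. The code was tested on simulated data. Total counts per library, 14530137 to 19850935, leave little counting error for most of these genes, but not for Fdps, or Npc1l1 in liver. No 2 libraries of a group were duplicates: their chi-square per degree of freedom was 8.23 to 231. Alternatives were RLE factors, upper-quartile factors, DESeq2 1.42.0, testing without the low-count filter, a replicate block and leaving out each library; leaving out the 5 libraries that stood apart on marker lists was added after seeing the data. All 28 genes are named, with those of the other lists that passed the threshold in a diet comparison or interaction, except 1 that is not reported here. The genes and lists were chosen with earlier results of these data known. Promoters are from RefSeq.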

Additional observations from a re-analysis of the deposited data

Results flagged for a closer look

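A library far from the other 4 of its group, by Dixon's test at the 95% level, was found in 9 of 163 combinations of gene and group (5.52%), close to the 5% that chance gives. In duodenum, Sc5d had 124 CPM in fructose 1, against 165 to 172 CPM in the other fructose libraries, Insig1 had 49.1 CPM in dextrose 5, against 80.2 to 90.7 CPM, and Hsd17b7, a ketosteroid reductase gene, had 27.9 CPM in control 2, against 17.9 to 19.4 CPM.

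The other 6 combinations all lay in the liver libraries with high proliferation markers. In dextrose 5, Tm7sf2 had 36.4 CPM, against 114 to 136 CPM, and Stard4 46.3 CPM, against 151 to 191 CPM. In control 2, Acat2 had 34.2 CPM, against 58.8 to 68.7 CPM, Mvk 7.01 CPM, against 21.2 to 26.3 CPM, Idi1 33.4 CPM, against 131 to 160 CPM, and Lss 20.2 CPM, against 40.1 to 47.8 CPM.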

How the results depend on the processing

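Fold changes were followed across settings one by one for genes with an unadjusted p under 0.05, and none of these changed sign. Because that p picked the genes and the settings share most libraries, a stable sign was likely from the start and says little. Among all 18 synthesis enzymes signs did change: without 1 library the number positive was 13 to 17 for fructose against control in duodenum (17 as reported), 15 to 18 for fructose against dextrose in liver (18) and 2 to 11 for dextrose against control in liver (5). For fructose against control in duodenum, 3 genes were called; upper-quartile factors gave 1 (Cyp51), no low-count filter 1 (Pmvk), a replicate block 1 (Tm7sf2) and omission of the libraries that stood apart 0, with 0 to 3 when each library was left out. The adjusted p over settings ran from 0.0099 to 0.328 for Pmvk, 0.00316 to 0.286 for Cyp51 and 0.0142 to 0.402 for Tm7sf2. For fructose against dextrose in duodenum, 0 were called; upper-quartile factors gave 1, DESeq2 2 and leaving out each library 0 to 2. In liver, fructose against control had 0 calls, DESeq2 3, omission of the libraries that stood apart 1 and leaving out each library 0 to 1. Fructose against dextrose in liver had 0 calls, DESeq2 3, omission of those libraries 3 and leaving out each library 0. The tissue difference had 24 to 27 calls when each library was left out and 24 without the filter; under upper-quartile factors its median over all genes moved to -0.115. Dextrose against control in either tissue and both interactions had 0 calls in every setting run. Over all genes, DESeq2 and omission of the libraries that stood apart gave 232 and 225 calls for fructose against control in liver, against 34 as reported, and 143 and 250 for fructose against dextrose, against 10 (16 without the filter); the replicate block gave 4 and 0. In duodenum that omission gave 329 calls for fructose against control (932 as reported), 163 for dextrose against control (312; DESeq2 520) and 274 for fructose against dextrose (506; DESeq2 826). The fructose interaction had 385 by DESeq2 (165 as reported), and the dextrose one 90 by DESeq2, 36 without those libraries and 12 with the block (18 as reported). The cause of these changes was not tested.

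The replicate numbers did not meet the rule for pairing: deviations of same-numbered libraries of both tissues correlated over all genes at -0.01 to 0.15 for the fructose diet, 0 to 0.13 for dextrose, and -0.01 to 0.07 for control, and a library matched its own number best in 3, 2 and 1 of 5 cases in that order of diets. With the replicate block the counts of calls were 1 for fructose against control in duodenum, 25 for the tissue difference and 0 in the other 7 comparisons.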
